A study of Homo sapiens with 2 samples.

Results

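The MYC network genes examined here were 10 of the 27685 genes listed for H2087 and H596 cells. They were chosen by symbol: MYC, MYCN and MYCL, MAX, the antagonists MXD1, MXI1, MNT and MGA, the MAX-like factor MLX, and TFAP4. The factors of this network are basic helix-loop-helix leucine zipper proteins. MYC proteins bind the E-box CACGTG as dimers with MAX and activate genes of growth, ribosome production and metabolism. MXD1, MXI1, MNT and MGA compete for MAX and repress such genes, and MLX forms a parallel arm with the glucose-sensing factors MLXIP (MondoA) and MLXIPL (ChREBP). TFAP4 (AP-4) binds CAGCTG as a dimer with itself and is known as a MYC target in other epithelial tumors.

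Both H2087 and H596 are established human cell lines that the labels give as lung adenocarcinoma. Both were grown untreated in RPMI medium with fetal bovine serum, and the labels name no engineered allele in either. There was 1 RNA-seq library of each, which leaves every value without a replicate and allowed no test between the cell lines. The libraries held 46961500 (H2087) and 55387847 (H596) estimated counts. Levels are FPKM (fragments scaled to transcript length and to library size), which can be set side by side between genes because they are relative to length. Bounds in brackets are 95% Wilson intervals on the FPKM scale and cover counting error only. A difference is that of log2(FPKM + 1) in H596 minus that in H2087. A gene was called when the difference reached 1, or 2-fold, and its mean FPKM was at least 1. In these bulk samples, fewer cells expressing a gene and less RNA per cell cannot be told apart.

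Of 10 markers of lung adenocarcinoma and simple epithelium, 8 had a mean FPKM of at least 1, and 5 of these were called lower in H596 and 0 higher. Of all 13048 genes with such a mean, 14.2% were called lower and 18.2% higher. NKX2-1 and NAPSA, markers of lung adenocarcinoma, had 110.0 and 21.9 FPKM in H2087 but 0.508 and 0.0645 in H596. KRT7 had 791 FPKM in H2087 and 608 in H596. SFTPB and SFTPC had at most 22 counts in either library. Of 7 squamous markers, 5 had a mean FPKM of at least 1, and 4 of these were called higher in H596, among them KRT5 (0 counts against 106 FPKM) and TP63 (0.183 against 55.2 FPKM). Their summed FPKM was 40.8 in H2087 and 307 in H596. The part of this difference in cell identity in the values of the MYC network was not tested. The neuroendocrine markers NEUROD1, INSM1 and CHGA had 0 counts in both libraries, as had the leukocyte markers PTPRC and CD3E. SYP, another neuroendocrine marker, had 14 counts in H2087 and 114 in H596, at 0.120 and 0.823 FPKM. Of 5 fibroblast markers, DCN was called higher in H596 (0 counts against 9.77 FPKM) and COL1A1 lower (3.89 against 0.916 FPKM). CD68, of the leukocyte list but also made in epithelial lysosomes, had 128 FPKM in H2087 and 25.6 in H596, and the 3 endothelial markers summed to 0.413 and 0.816 FPKM.

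All of the network genes but MYCN reached 1 FPKM in each library (9 of 10) and could be compared. MYCL was called higher in H596 (1 of 9, where 18.2% of all 13048 compared genes were called higher). MYC, MXI1 and MLX were called lower (3 of 9, where 14.2% of all compared genes were called lower). The median difference of the 9 genes was -0.16, beside a median of 0.12 over all compared genes. From the highest to the lowest FPKM, the order in H2087 was MYC, MAX, MLX, TFAP4, MXI1, MNT, MXD1, MGA, MYCL and MYCN. The intervals of MAX and MLX overlapped in H2087, as did those of TFAP4 and its next neighbour MXI1. In H596, the order was MAX, MYC, MYCL, TFAP4, MLX, MNT, MGA, MXD1, MXI1 and MYCN, and the intervals of TFAP4 and MLX overlapped. MYC was thus the highest of the 10 genes in H2087 and MAX in H596.

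**Figure D1:**
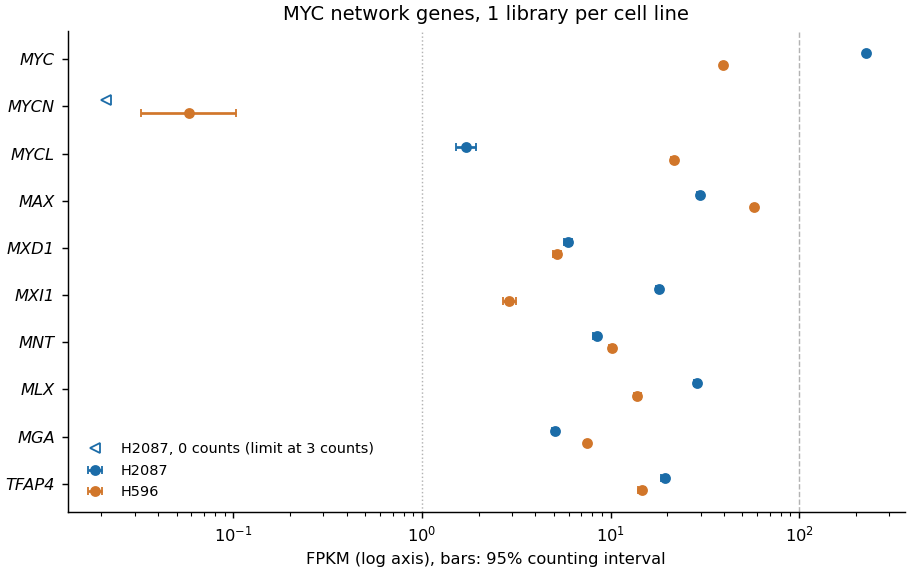
FPKM of the 10 genes on a log axis in H2087 (blue) and H596 (orange), with 95% counting intervals as bars and dotted and dashed lines at 1 and 100 FPKM. The open triangle is the limit that a count of 0 allows for MYCN in H2087. MYC in H2087, at 225 FPKM, is the point to the right of 100, and MYCL lies at 1.70 and 21.6 FPKM.

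MYC (gene 4609; chr8:128748315-128753680, plus strand, hg19), the widely expressed member of the family, had 225 FPKM in H2087 [222-228] from 25511 counts and 39.5 FPKM in H596 [38.5-40.6] from 5307 counts. It was therefore 5.69-fold lower in H596 (95% counting interval 5.53-5.86), a difference of -2.48. In the ranking of all genes by FPKM it stood at place 258 in H2087 and 1972 in H596. One transcript was listed. Of 5 noncoding genes beside the family genes, 1 reached a mean FPKM of 1. This was PVT1, which is transcribed from the region after MYC and differed in the same direction, with 21.0 FPKM in H2087 and 5.92 in H596, a difference of -1.67.

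MYCL (gene 4610; chr1:40361096-40367687, minus strand), the family member first described as amplified in small cell lung cancer, showed the opposite order. It had 1.70 FPKM in H2087 [1.51-1.93] from 259 counts and 21.6 FPKM in H596 [21.0-22.3] from 4214 counts. This was 12.7-fold higher in H596 (11.2-14.4), a difference of 3.06, the largest among the 10 genes. All 3 listed transcripts were higher in H596, but not to the same degree. NM_001033081 had 0.956 and 14.3 FPKM (15-fold), and NM_001033082, which is 364 bases shorter, had 0.302 and 6.12 FPKM (20.3-fold). The transcript that ends before the last exon, NM_005376, had 0.447 and 1.13 FPKM (2.53-fold). Its share of the gene's FPKM was 26.2% in H2087 and 5.24% in H596.

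MYCN (gene 4613; chr2:16080560-16087129, plus strand), the family member of the nervous system and neuroblastoma, was near the limit of detection. It had 0 counts in H2087, which allows up to 0.0210 FPKM, and 11 counts in H596, at 0.0580 FPKM [0.0324-0.104]. The H596 value was 2.76 times the H2087 limit of 3 counts, a ratio that leaves out the counting error of the 11 counts. MYCNOS, the antisense gene that overlaps MYCN, had 0 counts in both libraries.

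The family as a whole thus differed in amount and in makeup. The summed FPKM of MYC, MYCN and MYCL was 227 in H2087 and 61.2 in H596. MYC held 99.2% of it in H2087 and 64.6% in H596, and MYCL held 0.752% and 35.3%. MYCL was thus a minor part of the family in H2087 and a large part in H596.

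MAX (gene 4149; chr14:65472819-65569413, minus strand), the partner that MYC proteins need to bind DNA, had 29.98 FPKM in H2087 [28.9-31.1] from 2865 counts and 57.6 FPKM in H596 [56.2-58.99] from 6489 counts. It was 1.92-fold higher in H596 (1.84-2.01), a difference of 0.92, just short of the call. With both libraries scaled to TPM the difference was 1.11 and was called. The summed MYC family mRNA was 7.56 times the MAX mRNA in H2087 and 1.06 times in H596. With the highest single transcript of each gene in place of the sum over transcripts, it was 14.3 times in H2087 and 1.95 times in H596.

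Of 10 MAX transcripts, 8 had counts in each library. NM_145112 led with 15.9 and 27.7 FPKM (52.9% and 48.1% of the gene), followed by NM_002382 with 9.40 and 21.2 FPKM (31.3% and 36.8%). NM_002382 was 2.25-fold higher in H596 (2.09-2.43) and NM_145112 1.75-fold higher (1.64-1.86). Most reads of overlapping transcripts are shared, and their assignment is an estimate. The counting intervals leave out the error of that assignment, here and for the other transcripts, so a shift between these 2 transcripts is not established. The transcripts differ by a coding exon of 27 bases near the start of the protein, which NM_002382 has and NM_145112 lacks. It is shown because the assignment of reads to these transcripts rests on it, and the sequence is that of GRCh37 on the gene's strand.
MAX exon, chr14:65568264-65568290 (minus strand): gaagagcaaccgaggtttcaatctgcg
NM_145113 had 1.95 FPKM in H2087 and 1.99 in H596, so by the estimated assignment the higher MAX level was not shared by every transcript. The gene FNTB overlaps MAX only where NM_001271069 and NM_197957 reach furthest along the chromosome, and both of these had 0 counts in both libraries. FNTB itself had 5.66 and 15.6 FPKM, and whether the counting used strand is not given in the sources used here.

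MXI1 (gene 4601; chr10:111967363-112047123, plus strand), which dimerizes with MAX and recruits SIN3 repressors, differed most among the antagonists. It had 18.1 FPKM in H2087 [17.5-18.8] from 2946 counts and 2.91 FPKM in H596 [2.68-3.16] from 549 counts. This was 6.22-fold lower in H596 (5.68-6.83), a difference of -2.29. Its place in the ranking of all genes was 4089 in H2087 and 10710 in H596.

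The leading MXI1 transcript was not the same in the 2 libraries. NM_130439, which begins at position 111967363, had 11.1 FPKM in H2087 (1851 counts) and 0.653 in H596 (129 counts), a 17.0-fold lower value (14.2-20.5). NM_005962, which begins 18.4 kb further into the gene at position 111985762, had 6.83 FPKM in H2087 (1072 counts) and 2.22 in H596 (413 counts), a 3.07-fold lower value (2.74-3.45). The upstream start thus held 61.4% of the gene's FPKM in H2087 and 22.4% in H596, while the downstream start held 37.7% and 76.3%. The third transcript, NM_001008541, had 0.156 and 0.0358 FPKM. Both starts were lower in H596 and the upstream one by more. The windows of 250 bases that RefSeq (GRCh38.p14) gives for the 2 starts are shown because the transcripts that differ most in share begin there, and each was found at a single place in hg19. The downstream window precedes a RefSeq start at position 111985754, slightly before the start of NM_005962 in the deposited table.
MXI1 before the upstream start, chr10:111967113-111967362 (plus strand): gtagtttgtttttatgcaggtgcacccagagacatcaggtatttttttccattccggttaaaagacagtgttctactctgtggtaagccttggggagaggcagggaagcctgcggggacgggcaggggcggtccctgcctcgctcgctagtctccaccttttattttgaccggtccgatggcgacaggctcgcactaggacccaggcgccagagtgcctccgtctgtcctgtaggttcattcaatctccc
MXI1 before the downstream start, chr10:111985504-111985753 (plus strand): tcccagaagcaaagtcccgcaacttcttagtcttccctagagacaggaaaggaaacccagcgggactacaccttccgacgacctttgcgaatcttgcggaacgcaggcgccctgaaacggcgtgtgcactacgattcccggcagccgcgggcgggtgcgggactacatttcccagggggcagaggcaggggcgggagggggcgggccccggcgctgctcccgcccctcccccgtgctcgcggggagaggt
The upstream window had a GC content of 55.6% and the downstream window 66.8%. Neither window held the letters CACGTG or CAGCTG.

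MXD1 (gene 4084; chr2:70142173-70170076, plus strand), an antagonist that rises when cells differentiate, had 5.93 FPKM in H2087 [5.64-6.22] from 1595 counts and 5.22 FPKM in H596 [4.97-5.48] from 1664 counts. Its difference was -0.16 on the FPKM scale and 0.00 in TPM, so no direction can be given for it. NM_002357 held 91.2% and 92.6% of its FPKM. MNT (gene 4335; chr17:2287354-2304258, minus strand), the broadly expressed antagonist, had 8.46 FPKM in H2087 [8.10-8.84] from 1964 counts and 10.2 FPKM in H596 [9.86-10.6] from 2811 counts. This was 1.21-fold higher in H596 (1.14-1.28) and was not called.

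MGA (gene 23269; chr15:41952610-42062141, plus strand), a large factor that carries a T-box as well and belongs to the polycomb complex PRC1.6, had 5.09 FPKM in H2087 [4.90-5.27] from 2915 counts and 7.50 FPKM in H596 [7.30-7.71] from 5026 counts. It was 1.47-fold higher in H596 (1.41-1.54), a difference of 0.48 that was not called. Its transcripts differed in share. NM_001164273 had 4.38 and 4.69 FPKM, or 86.1% and 62.5% of the gene, while NM_001080541, which is 627 bases shorter, had 0.708 and 2.81 FPKM, or 13.9% and 37.5%. NM_001080541 was 3.97-fold higher in H596 (3.56-4.45). Nearly all of the gene's difference was thus assigned to the shorter transcript. The transcripts share most of their bases, so a shift between them is not established.

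The summed FPKM of MXD1, MXI1, MNT and MGA was 37.6 in H2087 and 25.9 in H596. The MYC family exceeded these antagonists 6.03-fold in H2087 and 2.37-fold in H596. Relative to MAX, the antagonists stood at 1.25 in H2087 and 0.449 in H596. The related genes MXD3 and MXD4, antagonists outside the 10 genes, had 10.8 and 7.91 FPKM in H2087 and 8.50 and 11.1 FPKM in H596, and neither was called. With them in the sum, the ratio of family to antagonists was 4.03 and 1.35. These are ratios of mRNA, and protein was not measured here.

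**Figure D2:**
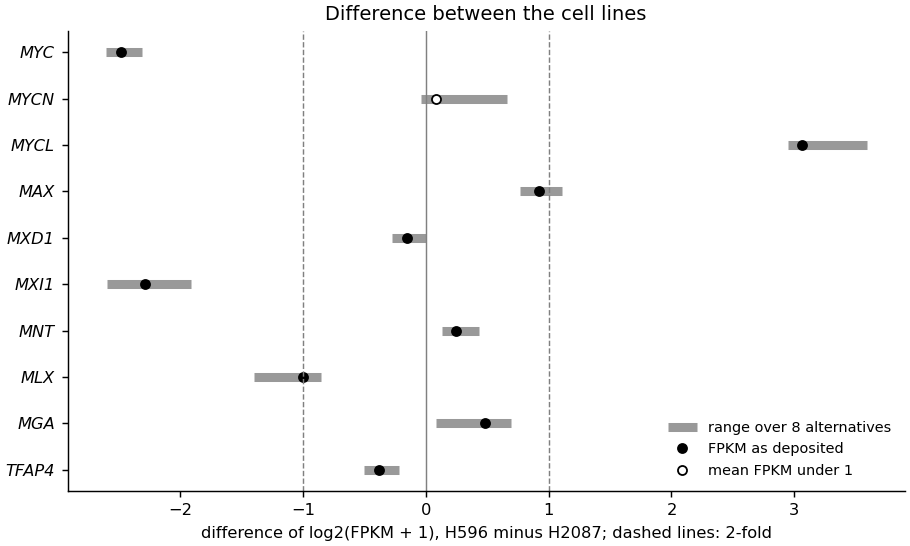
Difference of log2(FPKM + 1), H596 minus H2087, for each gene (black points; open for MYCN, which did not reach a mean of 1 FPKM), with the range over 8 other ways to scale or sum the values as grey bars and dashed lines at 2-fold. The bars of MYC (-2.61 to -2.31), MXI1 (-2.60 to -1.91) and MYCL (2.95 to 3.59) lie wholly past 2-fold, and those of MAX and MLX cross the line.

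MLX (gene 6945; chr17:40719078-40725221, plus strand), the partner of MLXIP and MLXIPL, had 28.8 FPKM in H2087 [27.8-29.8] from 3333 counts and 13.9 FPKM in H596 [13.3-14.5] from 1917 counts. It was 2.07-fold lower in H596 (1.96-2.19). Its difference of -1.001 lay at the threshold, and in TPM it was -0.85 and not called. PSMC3IP, which overlaps the 3′ end of MLX, had 7.13 and 5.83 FPKM.

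Of the 3 MLX transcripts, NM_198204 was 2.85-fold lower in H596 (2.65-3.07), with 22.2 FPKM in H2087 and 7.78 in H596. NM_170607, which has 162 more bases, had 3.97 and 3.93 FPKM. NM_198205 had 2.64 and 2.17 FPKM. By the estimated assignment of reads, the lower MLX level therefore lay in the leading transcript, whose share was 77.0% in H2087 and 56.0% in H596. A shift between these transcripts is not established. NM_198204 contains a coding exon of 90 bases that NM_198205 lacks, shown here from GRCh37.
MLX exon, chr17:40720488-40720577 (plus strand): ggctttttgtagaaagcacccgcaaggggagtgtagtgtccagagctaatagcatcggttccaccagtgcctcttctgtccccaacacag
MLXIP, which pairs with MLX, had 14.8 FPKM in H2087 and 11.9 in H596, and MLXIPL had 1.86 and 1.18 FPKM. With MXD3 and MXD4, 0 of these 4 other network factors were called in either direction. Of all compared genes, 18.2% were called higher and 14.2% lower, so a count over 4 genes says little.

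**Figure D3:**
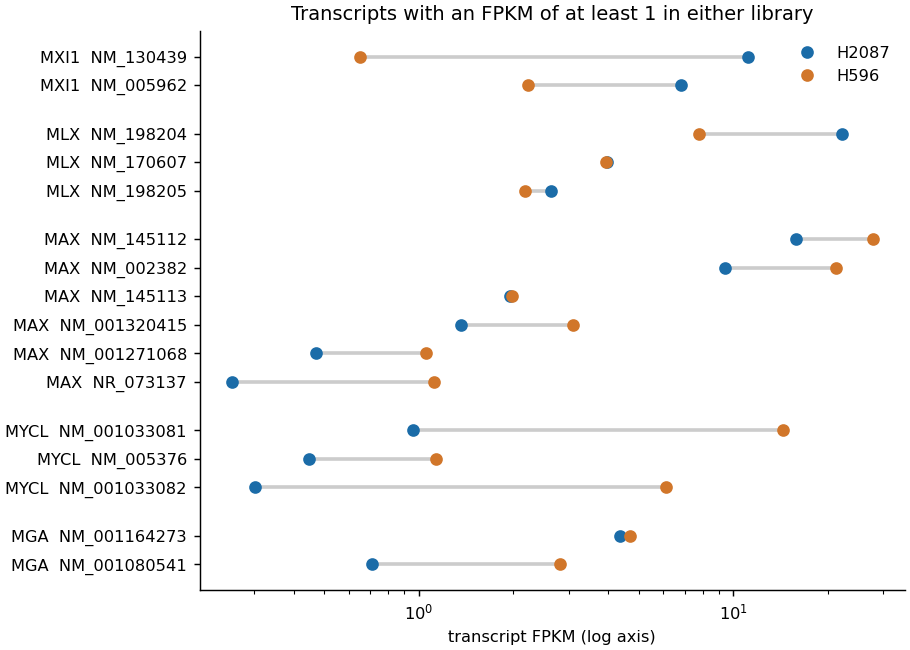
Transcript FPKM on a log axis in H2087 (blue) and H596 (orange) for the transcripts of MXI1, MLX, MAX, MYCL and MGA that had at least 1 FPKM in either library. The longest lines are those of MXI1 NM_130439 (11.1 to 0.653 FPKM), MYCL NM_001033082 (0.302 to 6.12 FPKM) and MYCL NM_001033081 (0.956 to 14.3 FPKM), while MAX NM_145113 and MLX NM_170607 have nearly the same value in both libraries.

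TFAP4 (gene 7023; chr16:4307187-4323001, minus strand) had 19.3 FPKM in H2087 [18.5-20.2] from 1985 counts and 14.6 FPKM in H596 [13.9-15.3] from 1775 counts. It was 1.32-fold lower in H596 (1.24-1.41), a difference of -0.38 that was not called, and it ranked at place 3897 in H2087 and 5199 in H596. TFAP4 mRNA was thus present at a moderate level in both cell lines, and its difference was smaller than that of MYC (5.69-fold). One transcript was listed.

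RefSeq windows of 250 bases before a transcript start were given for 8 of the 10 genes, 13 windows in all. The MAX windows, and the MGA windows before positions 41913422 and 41952945, had no start in the deposited data within 200 bases. The MAX windows lie within the span of listed MAX transcripts. The E-box CACGTG, which reads the same on both strands, was found in 2 of these 13, beside 6.34% of all 35116 windows. It lay in the windows of MNT and MLX, which are shown with these letters in capitals. The MLX window is cut before the start of its listed transcripts.
MNT, chr17:2304355-2304604 (minus strand): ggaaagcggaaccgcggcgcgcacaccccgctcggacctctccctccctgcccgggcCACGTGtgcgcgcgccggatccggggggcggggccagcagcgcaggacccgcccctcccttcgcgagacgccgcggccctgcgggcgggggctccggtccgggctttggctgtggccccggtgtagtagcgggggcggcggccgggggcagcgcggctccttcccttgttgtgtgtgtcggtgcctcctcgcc
MLX, chr17:40718868-40719077 (plus strand): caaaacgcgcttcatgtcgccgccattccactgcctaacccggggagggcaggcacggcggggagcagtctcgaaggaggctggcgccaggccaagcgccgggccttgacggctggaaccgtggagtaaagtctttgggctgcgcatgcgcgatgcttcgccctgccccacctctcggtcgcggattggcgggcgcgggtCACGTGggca
The E-box began at position -193 relative to the RefSeq start of MNT and at position -50 relative to that of MLX. CAGCTG, the motif of TFAP4 and likewise the same on both strands, was found in 0 of the 13 windows, beside 14.0% of all windows. These matches describe letters in the windows, and binding was not measured.

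The genes that work with or on MYC differed little as a group. Of 25 cofactors and turnover factors, 3 were called higher in H596 and 1 lower, where 18.2% and 14.2% of all compared genes were. The median difference was 0.11 beside 0.12 over all compared genes. The ubiquitin ligase subunit SKP2 had 15.8 FPKM in H2087 and 43.8 in H596, the ubiquitin ligase HUWE1 21.1 and 47.1, and the kinase AURKA, which stabilizes MYC proteins, 35.5 and 74.1. BIN1, which binds MYC and restrains it, was lower, with 16.1 and 7.36 FPKM.

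Among genes known as targets that MYC activates, more were called lower in H596 than higher. Of 29 nucleolar and ribosome biogenesis genes, 11 were called lower and 0 higher, beside 14.2% and 18.2% of all compared genes. In this list 26 of 29 differences were below 0, as were 5852 of all 13048, and the median difference was -0.86. NPM1, the nucleolar chaperone nucleophosmin, had 1911 FPKM in H2087 and 422 in H596, values that near-identical pseudogene copies make uncertain. NOP16 had 71.0 and 16.2 FPKM, and NIP7 had 38.1 and 10.7 FPKM, both being factors of large ribosomal subunit assembly. The 3 other genes of this list, PPAN, UBTF and SURF6, had differences above 0, up to 0.44.

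Of 31 growth and metabolism targets that could be compared, 26 had a difference below 0. In this list 18 genes were called lower and 2 higher, beside 14.2% and 18.2% of all compared genes. The median difference was -1.37. CDK4, a kinase of the G1 phase, had 961 FPKM in H2087 and 54.0 in H596. ODC1, the first enzyme of polyamine synthesis, had 126 and 22.1 FPKM. The genes called higher were SLC7A5, an amino acid transporter, with 177 and 434 FPKM, and the cyclin CCND2, with 0 counts in H2087 (up to 0.00979 FPKM) and 3.06 FPKM in H596.

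The most highly expressed genes at large were also lower in H596. The median difference of all compared genes was 0.21 at a mean FPKM of 1 to 10 and 0.13 at 10 to 30. It was -0.05 at 30 to 100, -0.16 at 100 to 300 and -0.66 at 300 or more. In the class of 30 to 100 FPKM, the median was -0.81 over 13 nucleolar genes and -1.14 over 10 growth and metabolism genes. At 10 to 30 FPKM it was -0.86 over 12 and -1.16 over 5 genes, and at 300 or more -1.65 over 2 and -1.51 over 7. At 100 to 300 FPKM it was -0.98 for 1 nucleolar gene and -1.59 over 6 growth and metabolism genes. At 1 to 10 FPKM the lists had opposite signs, with -0.93 for 1 nucleolar gene and 0.80 over 3 growth and metabolism genes, of which 1 was called higher and 0 lower. These classes were chosen after the values were seen. Differences of the 15 proliferation genes ran from -0.84 to 0.97, and 0 were called in either direction. Of all compared genes, 18.2% were called higher and 14.2% lower. The median difference of the proliferation genes was -0.12, and their summed FPKM was 977.4 in H2087 and 977.3 in H596. MKI67, the proliferation marker, had 31.1 and 35.4 FPKM.

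Of 10 genes known to be repressed by MYC, 5 were called higher in H596 and 2 lower, with a median difference of 0.71. The list was split, with 5 differences above 0 and 5 below, and of all compared genes 18.2% were called higher and 14.2% lower. The cell cycle inhibitor CDKN1A (p21) had 6.54 FPKM in H2087 and 72.1 in H596. CEBPA, a differentiation factor, had 0.349 and 9.50 FPKM, and CDKN2B, another inhibitor of the cell cycle, had 1.61 and 12.1 FPKM. GADD45A (65.2 and 24.4 FPKM) and CDKN1C (2.46 and 0.475 FPKM) had the opposite order. These lists were drawn up with earlier results of these data known, so their counts are a description of the 2 libraries.

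**Figure D4:**
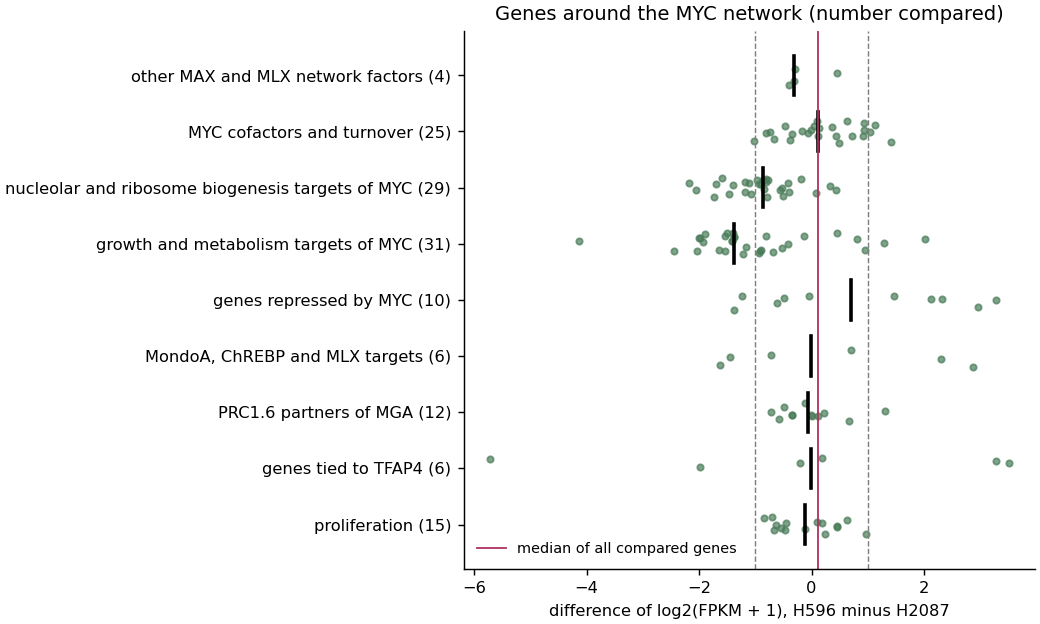
Difference of log2(FPKM + 1), H596 minus H2087, of each gene (points) in the lists around the network, with list medians as black bars, the median of all compared genes (0.12) as a red line and 2-fold as dashed lines. The medians of the nucleolar (-0.86) and growth (-1.37) targets lie left of that line and the median of the genes repressed by MYC (0.71) lies right of it.

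Targets of MLX and its partners were split. Of 6 compared, 2 were called higher and 2 lower in H596, beside 18.2% and 14.2% of all compared genes. The higher ones were TXNIP (86.6 and 431 FPKM) and ARRDC4 (1.08 and 14.2 FPKM), alpha-arrestin genes that answer to glucose through MLXIP and MLX. ACLY (85.6 and 27.0 FPKM) and FASN (130.3 and 47.1 FPKM), enzymes of fatty acid synthesis, were lower. MLX mRNA was lower in H596, at the threshold of the call. TXNIP and ARRDC4 thus had the opposite order to MLX, and ACLY and FASN the same order. Any part of MLX in these values was not tested.

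Among 12 partners of MGA in PRC1.6, RING1, a ubiquitin ligase subunit, was called higher (19.9 and 50.7 FPKM) and 0 were called lower. Of all compared genes, 18.2% were called higher and 14.2% lower. The median difference of these PRC1.6 partners was -0.07. Of 11 germline genes that this complex is known to hold silent, 9 had 0 counts in H2087 and 7 in H596. HORMAD1, a protein of meiotic chromosome axes, had 0 counts in H2087, which allows up to 0.0337 FPKM. It had 326 counts in H596, at 3.03 FPKM, which was 90.0 times that limit.

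Of 6 compared genes tied to TFAP4, 2 were called higher and 2 lower in H596, beside 18.2% and 14.2% of all compared genes. Their median difference was -0.01. CDKN1A, which TFAP4 is known to repress, is given above, and LBH had 0.234 FPKM in H2087 and 13.02 in H596. VIM, the intermediate filament of mesenchymal cells, had 51.8 FPKM in H2087 and 0 counts in H596, which allows up to 0.0254 FPKM. GLRX3, a glutaredoxin, had 145 FPKM in H2087 and 35.6 in H596, a 4.06-fold lower value. LINC00959, a noncoding gene in which the study examined TFAP4 binding, had 0 counts in H2087, which allows up to 0.0239 FPKM, and 104 counts in H596, at 0.685 FPKM. TFAP4 itself was 1.32-fold lower in H596 and was not called. Any part of TFAP4 in the values of these genes was not tested.

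Each gene was also set beside the 10 nearest compared genes on either side of it on the chromosome. The stretch that these neighbours covered was unequal, from 0.635 Mb for MLX to 9.54 Mb for MYCN, with 8.81 Mb for MYC. Some neighbours overlap one another, such as MIR1204 and PVT1 after MYC, and each was counted. MYC, at -2.48, stood beside a neighbour median of -0.73, and 2 of its 20 neighbours were at or below it. The 10 neighbours before MYC all had differences below 0, while 3 of the 10 after it did. MXI1, at -2.29, stood beside a neighbour median of 0.00, with 1 of 20 at or below it. MYCL, at 3.06, stood beside a median of -0.07, and 0 of its 20 neighbours were as high. MGA, at 0.48, lay below its neighbours' median of 0.92, and 9 of those 20 genes were called higher and 0 lower. Of all compared genes, 18.2% were called higher and 14.2% lower. The difference of TFAP4, -0.38, stood beside a neighbour median of 0.20, that of MAX, 0.92, beside 0.29, and that of MLX, -1.001, beside 0.12. For MNT the values were 0.25 and 0.40, and for MXD1 -0.16 and -0.25. MYCL thus lay outside the range of its neighbours. MXI1 and MYC lay within theirs, near the low end (-3.67 to 6.62 and -3.10 to 1.62). MLX likewise had 2 of 20 neighbours at or below it. Copy number was not measured here.

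**Figure D5:**
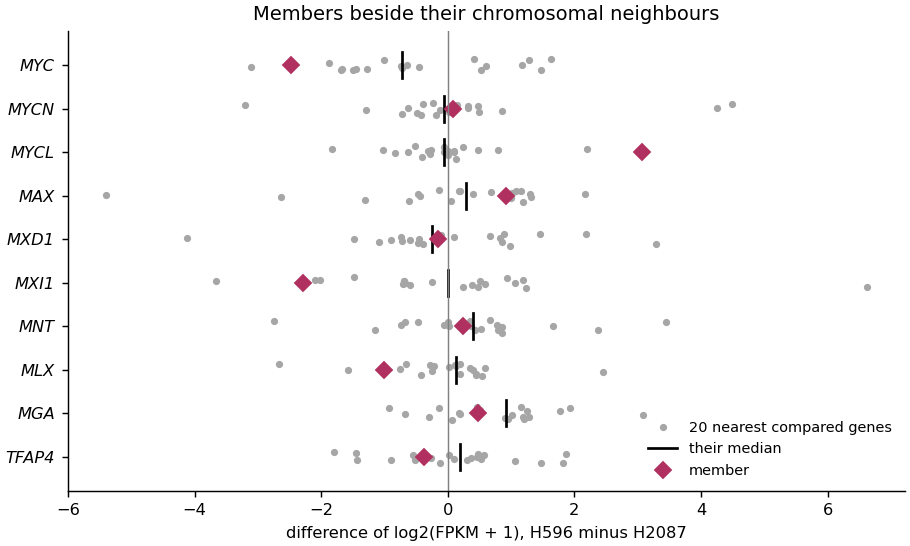
Difference of log2(FPKM + 1), H596 minus H2087, of each of the 10 genes (red diamonds) beside its 20 nearest compared genes (grey points) and their median (black bars). MYCL, at 3.06, lies to the right of all 20 of its neighbours, and MXI1, at -2.29, to the left of 19 of 20.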

How the data were processed

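RNA-seq tables of 2 libraries, 1 of untreated H2087 and 1 of untreated H596 cells, were analysed. According to the labels and methods, the authors isolated total RNA with TRIzol, made stranded mRNA libraries, ran them on a HiSeq4000 instrument, and used bcl2fastq 1.8.4, Trimmomatic, HISAT2 2.0.5 on hg19 and StringTie 1.3.3b with RefSeq transcripts. The authors deposited an estimated count and an FPKM value for each of 27685 genes and 63714 transcripts. How the counts were made is not given in the sources used here; they are whole numbers and were taken as estimates derived from coverage. The deposited FPKM values are scaled to length and library size, so few counts make the values of short or low genes imprecise. No column of sample values was left without a sample.

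The members and gene lists were chosen with earlier results of these data known. Differences were taken on the log2(FPKM + 1) scale, which understates those of low genes, over the 13048 genes whose mean FPKM reached 1, and were called at 2-fold. With 1 library per cell line no p-value was computed. Shares have 95% Wilson intervals and ratios Clopper-Pearson intervals given the sum of the counts (scipy 1.17.1). A count of 0 was taken to allow up to 3 counts. If both mates of a pair were counted, the intervals are too narrow. The total counts, 46961500 and 55387847, set this precision. All 10 members are named, with the 3 largest differences in each direction among the called genes of each list, and GLRX3, LINC00959, PVT1, MYCNOS, MXD3, MXD4, MLXIP and MLXIPL in any case. A gene that this rule would name and a marker are not reported here. MKI67, PPAN, UBTF, SURF6 and the markers were chosen after their values were seen.

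Alternatives were TPM, scaling of the counts by TMM (edgeR 4.0.16, R 4.3.3) or by DESeq2 1.42.0 size factors, centring on the median, a pseudocount of 0.1, other filters, a 1.5-fold call, transcript values and exclusion of mitochondrial and ribosomal protein genes. Calls and intervals were tested on simulated counts for H596 against H2087. Among 12885 genes, 183 of the 200 that changed 4-fold were found in the direction simulated, and 8 of the 12685 others were called. Of 1000 Wilson intervals, 95.1% held the true share. Both simulated libraries were drawn from the shares of H2087 with counting error alone. They held no spread between cultures, so these rates do not carry over to the calls between the cell lines. Sequences are from GRCh37 and RefSeq (GRCh38.p14) windows matched to it. Python 3.11.15, numpy 2.4.6, pandas 2.3.3 and matplotlib 3.10.9 were used.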

Additional observations from a re-analysis of the deposited data

How the results depend on the processing

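The calls of MYC, MYCL and MXI1 held under all 8 ways to scale or sum the values, with differences of -2.61 to -2.31, 2.95 to 3.59 and -2.60 to -1.91. Those of MNT (0.13 to 0.44), MGA (0.08 to 0.69) and TFAP4 (-0.50 to -0.22) kept their sign and were called under none of them. MAX was called in TPM (1.11), so that 2 of the compared network genes were higher there, as they were at a 1.5-fold call, beside 1 otherwise. Of all 13048 compared genes, 3212 were called higher in TPM and 2376 in FPKM. The share of all genes past 1.5-fold was not computed. MLX was not called in TPM (-0.85). MXD1 ran from -0.27 to 0.00. The median difference of all compared genes was 0.12 in FPKM, 0.30 in TPM, 0.01 with TMM and 0.02 with size factors, and differences are to be read relative to it. With the highest single transcript of each gene in place of the sum, the ratio of MYC family to MAX was 14.3 in H2087 and 1.95 in H596, and the ratio of family to antagonists in H2087 was 7.69. With MXD3 and MXD4 added to the antagonists that ratio was 4.03 in H2087 and 1.35 in H596. The order of the libraries was the same in each of these ratios. The other values under an alternative were gene differences and list medians. Of these, 51 were classed as the same as the main value and 73 as moved. Counting intervals exist for the gene differences only. No call changed its sign. The median of the MYC cofactors and turnover factors, 0.11, was -0.004 when centred on the median and -0.01 with TMM. The difference of MYCN, 0.08, was -0.04 when centred. No paired analysis was possible because there was 1 library of each cell line, which also means that no replicate could be left out. At these depths, counting error limits MYCN, at 0 and 11 counts, and the minor transcripts, while the spread between cultures of a cell line is unknown.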
